A study of Mus musculus with 7 samples.

Results

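The interleukin 1 (IL-1) axis was followed through 10 genes in libraries of cells sorted as haematopoietic stem cells (HSCs). They were chosen by name: the ligands Il1a and Il1b, the receptor antagonist Il1rn, the receptor genes Il1r1, Il1r2, Il1rap and Il1rl1, the inflammasome genes Nlrp3 and Casp1, and the adaptor Myd88. All 10 were among the 28786 genes of the deposited table, and 9 of them passed the filter on low counts, Il1a being the exception. Each library was made from 1500 cells of the bone marrow of mice aged 6 to 8 weeks. The mice were C57BL/6J. The MC38 group had colon cancer of MC38, a tumour cell line of that strain, and the control group was of normal mice. MC38 gave 4 libraries and control 2 that were used. A further control column followed the sum of the other control columns at a median ratio of 0.353 over 9692 genes and was left out as not independent. The tumour's site and age, the sort gates and the number of animals behind a group are not given in the labels. Whether each library is a different animal is not stated, so a p-value here sets the groups against a spread that may be technical only. The libraries used held 12131546 to 17657037 counts.

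IL-1 is an alarm cytokine of myeloid cells. IL-1β is made as an inactive precursor that caspase-1, switched on by an inflammasome such as NLRP3, cuts into the active form, whereas the precursor of IL-1α is already active. Both bind the receptor IL-1R1, which recruits the accessory chain IL-1RAP and signals through MyD88 to NF-kB. IL-1R2 binds the ligand without signalling, as a decoy, and the antagonist IL-1RA, the product of Il1rn, occupies IL-1R1 without activating it. In mouse HSCs, IL-1 is known to favour myeloid differentiation, and the series asks about a myeloid bias of HSCs in tumour-bearing mice.

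The ligand Il1b and the antagonist Il1rn were the genes of the axis that rose in MC38, by 2.41-fold and 4.42-fold. Neither passed the test in every fit that left out a single library, as given below. Every MC38 library lay above both controls for these genes, and also for the receptors Il1r1 and Il1r2, which did not pass the test. Il1rap, Il1rl1, Nlrp3, Casp1 and Myd88 overlapped between the groups. Of the 9 tested genes 2 were called higher and 0 lower (edgeR quasi-likelihood test, adjusted p under 0.05), where 1.61% of all 14226 tested genes were called, 1.04% higher and 0.569% lower. Groups did not overlap for 4 of the 9, all with MC38 higher, against 29.0% of all tested genes in either direction and 14.0% with MC38 higher. The median log2 fold change was 0.77 over the 9 genes and 0.01 over all tested genes. At an unadjusted p under 0.05 there were 5 of the 9 genes, all higher, and 2488 of all tested genes. DESeq2 called 3 of the 9 higher, Il1r2 being added, and limma-voom 2, and both called 0 lower. Over all 14226 tested genes DESeq2 called 626 higher and 396 lower, and limma-voom 99 higher and 82 lower. In the same libraries the summed level of neutrophil markers was 2.04 times as high in MC38 as in control. Relative to these markers Il1b overlapped between the groups and Il1rn did not. Dividing by this higher sum lowers the fold change of every gene, and the scale was chosen after the values were seen. In exact permutation tests on this scale, no p adjusted over the 9 genes was under 0.300. In bulk libraries fewer cells of a type and less RNA per cell cannot be told apart.

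The stretches upstream of the starts of Il1b and Il1rn are shown because these genes changed, and that of Il1a because it lies near Il1b on chromosome 2 and had few counts. Each is the 250 bases before the RefSeq start (GRCm38.p6), written 5′ to 3′ on the strand of the gene, with motif matches in capitals. The windows are chr2:129371140-129371389 (minus strand) for Il1b, chr2:24336610-24336859 (plus strand) for Il1rn and chr2:129309973-129310222 (minus strand) for Il1a.
Il1b: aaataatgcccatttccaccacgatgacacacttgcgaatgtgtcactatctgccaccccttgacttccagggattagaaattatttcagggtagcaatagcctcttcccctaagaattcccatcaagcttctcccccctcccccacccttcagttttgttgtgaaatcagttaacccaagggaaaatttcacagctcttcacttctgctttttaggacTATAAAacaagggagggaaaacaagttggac
Il1rn: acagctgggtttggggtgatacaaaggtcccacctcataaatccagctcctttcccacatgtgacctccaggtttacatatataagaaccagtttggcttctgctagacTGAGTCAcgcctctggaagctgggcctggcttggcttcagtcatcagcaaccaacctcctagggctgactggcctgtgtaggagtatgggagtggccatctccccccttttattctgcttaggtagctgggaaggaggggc
Il1a: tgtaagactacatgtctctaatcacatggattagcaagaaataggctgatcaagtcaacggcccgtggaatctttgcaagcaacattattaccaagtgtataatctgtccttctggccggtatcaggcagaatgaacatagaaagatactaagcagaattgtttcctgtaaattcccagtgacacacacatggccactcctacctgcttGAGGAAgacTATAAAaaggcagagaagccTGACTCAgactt
The motifs searched on both strands were an NF-kB site (GGGAN followed by TTTCC), a C/EBP site (TTGCNNAA), a PU.1 core (GAGGAA), an AP-1 site (TGANTCA) and a TATA box (TATAAA), with N for any base. The Il1b window held a TATA box from -31 to -26, counted back from the start, and the Il1a window held one from -32 to -27. Il1a also had a PU.1 core (-41 to -36) and an AP-1 site (-12 to -6), and Il1rn had an AP-1 site from -141 to -135. No motif overlapped another in these windows. Among 32851 such windows of the mouse genome, a TATA box was found in 12.4%, an AP-1 site in 6.75%, a PU.1 core in 23.3%, a C/EBP site in 9.56% and the NF-kB site in 0.356%. These are matches of letters, and counts per gene do not show which start was used. RefSeq lists 3 starts for Il1rn, of which the one nearest to the start of the gene in GENCODE is shown.

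Il1b (ENSMUSG00000027398, chromosome 2: 129364570 to 129371139, GRCm38, the assembly of mm10) encodes the precursor of IL-1β. In CPM, the read count scaled to library size after TMM normalization, its level was 211, 215, 281 and 251 in MC38 replicates 1 to 4, against 106 and 92.3 in control replicates 1 and 2. Every MC38 library lay far above the higher control. Il1b rose in MC38 with a mean of 240 ± 33.3 CPM, against 99.4 CPM in the 2 controls (SD, n = 4, edgeR log2 fold change 1.27 with SE 0.16, adjusted p = 0.00402). The libraries held 3135 to 5056 Il1b counts in MC38 and 1118 to 1267 in control, so no value rested on few reads. The call was lost without control replicate 1 (edgeR adjusted p = 0.0665) and without control replicate 2 (0.0759), where a single control remains, and the log2 fold change was then 1.38 and 1.17. The antisense gene Il1bos shares exon sequence with Il1b, and with no strand setting given its reads cannot be told apart.

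Il1a (ENSMUSG00000027399, chromosome 2: 129299610 to 129309972) encodes IL-1α and was near the limit of detection. It had 9, 7, 0 and 1 counts in MC38 replicates 1 to 4, against 3 and 2 counts in the controls. The MC38 values spanned those of the controls on both sides, and no fold change was taken. At 17 counts over the MC38 libraries and 5 over the controls, a difference in Il1a was not detectable at this depth.

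Il1rn (ENSMUSG00000026981, chromosome 2: 24336853 to 24351494) encodes IL-1RA in a secreted and in intracellular forms, which counts per gene do not separate. Its level was 31.8, 28.6, 22.5 and 25.8 CPM in MC38 replicates 1 to 4, against 4.28 and 8.01 CPM in the controls. All MC38 libraries stood well above the controls, which themselves differed by more than any pair of MC38 libraries did in proportion. Il1rn rose with a mean of 27.2 ± 3.96 CPM in MC38 and 6.15 ± 2.63 CPM in control (SD, n = 4 and 2, edgeR log2 fold change 2.14 with SE 0.33, adjusted p = 0.0137). The call was lost without control replicate 1 (edgeR adjusted p = 0.113, log2 fold change 1.76) and without MC38 replicate 2 (0.0545, 2.12). Without control replicate 2 the log2 fold change was 2.67.

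**Figure D1:**
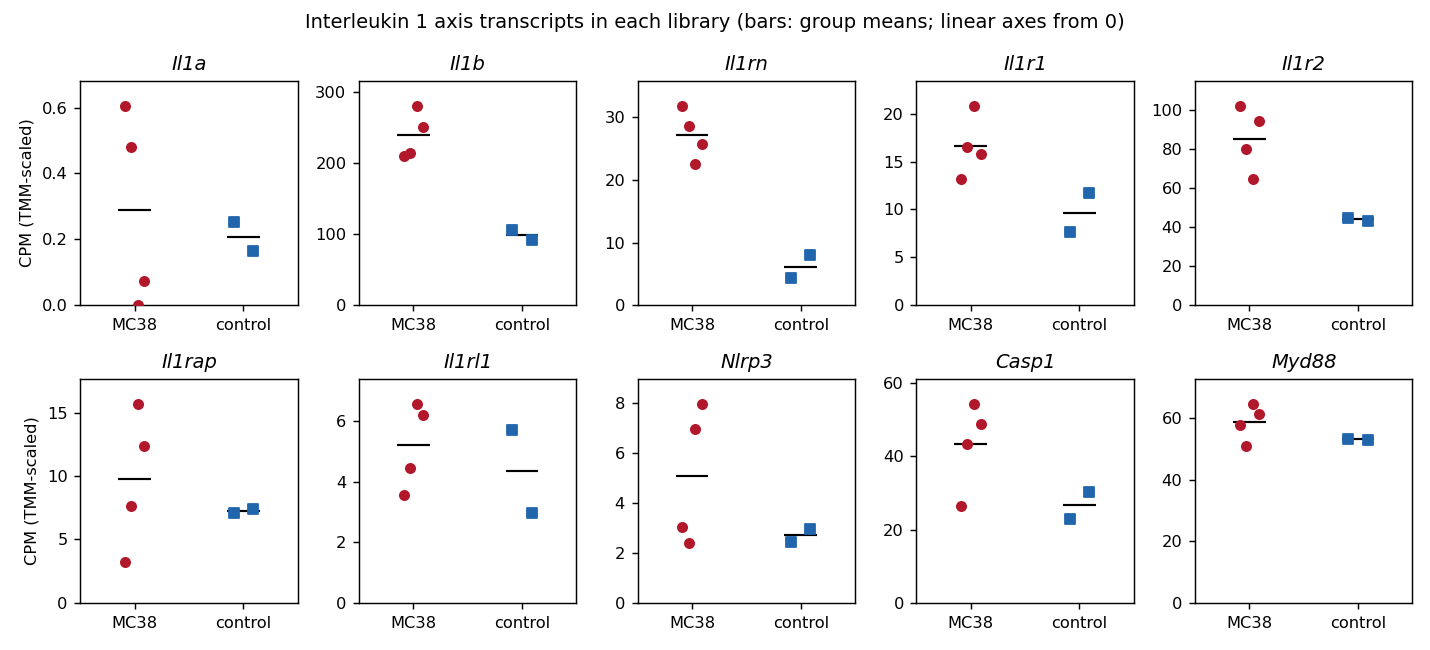
CPM after TMM scaling of each of the 10 genes, on linear axes from 0, with a circle per MC38 library, a square per control library and a bar at the group mean. All 4 MC38 libraries lie above both controls for Il1b (211 to 281 CPM), Il1rn, Il1r1 and Il1r2, and the groups overlap for the other genes.

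The fitted fold change was larger for the antagonist than for the ligand, but their ratio within a library overlapped between the groups. Il1rn counts were 0.151, 0.133, 0.0802 and 0.103 of the Il1b counts in MC38 replicates 1 to 4, against 0.0406 and 0.0872 in the controls. MC38 replicate 3 lay below control replicate 2. On the log2 scale, with 0.5 added to each count, the ratio averaged -3.14 ± 0.41 in MC38 and -4.07 ± 0.78 in control (SD, n = 4 and 2). The difference of 0.93 gave p = 0.200 in an exact two-sided permutation test over 15 splits, whose smallest possible p is 0.0667 (0.400 adjusted over the 2 ratios tested). It was 0.38 without control replicate 1 and 1.48 without control replicate 2, so the size of the shift rested on single controls.

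The decoy receptor Il1r2 (ENSMUSG00000026073, chromosome 1: 40074079 to 40125231) stood just short of the threshold. It was at 102, 80.1, 64.6 and 94.3 CPM in MC38 replicates 1 to 4, against 44.5 and 43.3 CPM in the controls. The controls were nearly equal, and each MC38 library exceeded them. Il1r2 averaged 85.3 ± 16.6 CPM in MC38 and 43.9 ± 0.902 CPM in control (SD, n = 4 and 2, edgeR log2 fold change 0.96 with SE 0.20, adjusted p = 0.0522). It passed in 6 of 13 alternatives. Among them were DESeq2 (adjusted p = 0.000456), edgeR without the low-count filter (0.00543), and edgeR without MC38 replicate 1 (0.0398) or MC38 replicate 3 (0.00683). The others were edgeR with all 7 columns (adjusted p = 0.00780), which takes in the control column that is not independent, and with a replicate block (0.00526). That block compares only MC38 replicates 1 and 2 with the controls. The highest adjusted p was 0.272, without control replicate 1.

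Il1r1 (ENSMUSG00000026072, chromosome 1: 40225080 to 40317257), the signalling receptor, was at 13.2, 16.5, 20.8 and 15.8 CPM in MC38, against 7.65 and 11.7 CPM in control. The lowest MC38 library was close to the higher control. The log2 fold change of 0.77 (SE 0.32) did not pass (edgeR adjusted p = 0.256), nor in any of the alternatives tried, where the lowest adjusted p was 0.0835. Il1r2 counts were 7.74, 4.86, 3.11 and 5.95 times the Il1r1 counts in MC38 replicates 1 to 4, and 5.80 and 3.68 times in the controls. This ratio of decoy to signalling receptor overlapped fully between the groups, with a log2 difference of 0.15 (exact two-sided permutation p = 0.800 over 15 splits, adjusted 0.800) that changed sign without MC38 replicate 1 (-0.04) and without control replicate 2 (-0.18).

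**Figure D2:**
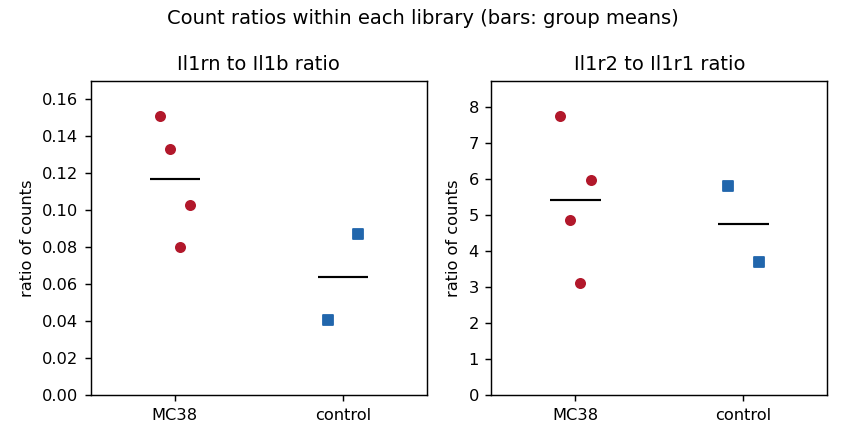
Ratio of counts within each library, for Il1rn to Il1b (left) and Il1r2 to Il1r1 (right), on linear axes from 0, with a circle per MC38 library, a square per control library and a bar at the group mean. The MC38 values run from 0.0802 to 0.151 on the left and from 3.11 to 7.74 on the right, and both groups overlap in each panel.

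The accessory chain Il1rap (ENSMUSG00000022514, chromosome 16: 26581704 to 26730117), shared by the receptors for IL-1, IL-33 and IL-36, varied widely among the MC38 libraries. It was at 3.23, 7.66, 15.7 and 12.4 CPM in MC38 replicates 1 to 4, against 7.06 and 7.43 CPM in control. MC38 replicate 1 lay below the controls and replicates 3 and 4 above them, and the log2 fold change of 0.43 (SE 0.56) did not pass (edgeR adjusted p = 0.750). Il1rl1 (ENSMUSG00000026069, chromosome 1: 40429570 to 40465415) encodes ST2, the receptor for IL-33, which mast cells, basophils and type 2 innate lymphoid cells carry. Its level was 3.56, 4.44, 6.57 and 6.21 CPM in MC38, against 5.71 and 2.97 CPM in control, and the controls spanned most of the MC38 range. The log2 fold change was 0.26 (SE 0.50, edgeR adjusted p = 0.848) and turned to -0.13 without control replicate 2.

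The genes that produce active IL-1β did not pass. Nlrp3 (ENSMUSG00000032691, chromosome 11: 59541568 to 59566956), the inflammasome sensor, was at 3.03, 2.39, 6.96 and 7.99 CPM in MC38, against 2.44 and 2.97 CPM in control. MC38 replicates 3 and 4 stood apart from the other 4 libraries, which lay together. The log2 fold change of 0.91 had an SE of 0.64 (edgeR adjusted p = 0.516). Casp1 (ENSMUSG00000025888, chromosome 9: 5298517 to 5307265), which encodes the protease that cuts the precursor, was at 26.5, 43.4, 54.4 and 48.9 CPM in MC38, against 22.9 and 30.3 CPM in control. MC38 replicate 1 lay between the controls and the other MC38 libraries above them (edgeR log2 fold change 0.70 with SE 0.29, adjusted p = 0.251). Activation of caspase-1 is a step of the protein and is not measured by transcript counts.

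Myd88 (ENSMUSG00000032508, chromosome 9: 119335934 to 119341411), the adaptor shared by IL-1 and Toll-like receptors, had the smallest log2 fold change of the 9 genes. It was at 57.8, 50.9, 64.7 and 61.3 CPM in MC38, against 53.2 and 53.0 CPM in control. MC38 replicate 2 was below both controls, and the log2 fold change was 0.14 (SE 0.16, edgeR adjusted p = 0.699). Exons of Acaa1a on the opposite strand overlap Myd88, and Gm20319 overlaps Il1rap in the same way.

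**Figure D3:**
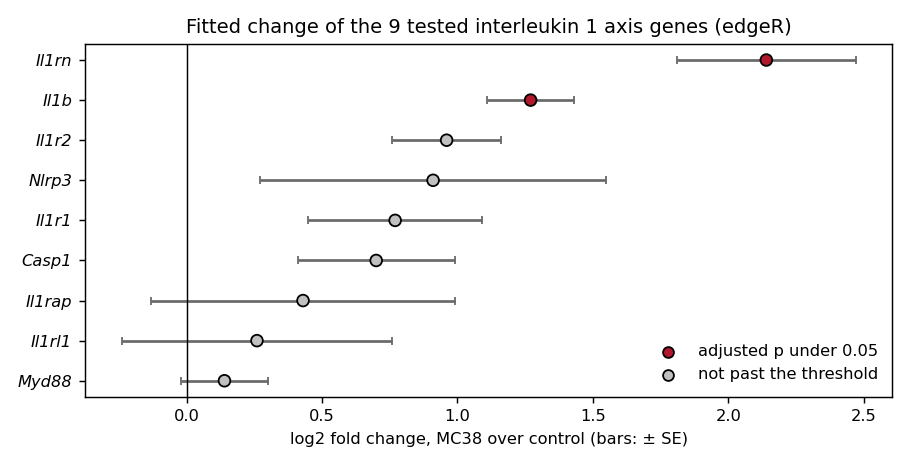
Log2 fold change of MC38 over control from edgeR for the 9 tested genes, with bars of 1 SE and genes past an adjusted p of 0.05 filled in red. All 9 estimates are above 0, from 0.14 for Myd88 to 2.14 for Il1rn, but only Il1rn and Il1b passed.

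The MC38 libraries differed among themselves in an order that the genes shared in part. Il1rn and Il1r2 were highest in MC38 replicate 1 and lowest in replicate 3. Il1b, Il1r1, Il1rap, Il1rl1, Casp1 and Myd88 were highest in MC38 replicate 3, and Il1r1, Il1rap, Il1rl1, Casp1 and Il1b were lowest in replicate 1.

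Levels were also compared between genes as CPM per kilobase of exon. Il1b stood first in both groups, at 126 ± 17.5 CPM per kilobase in MC38 and 52.1 ± 5.25 in control (SD, n = 4 and 2). Il1r2 was next, at 44.7 ± 8.69 CPM per kilobase in MC38 and 23.0 ± 0.473 in control, with Casp1 (28.9 in MC38 and 17.8 in control) and Myd88 (22.8 in MC38 and 20.6 in control) after it. Casp1 stood above Myd88 in MC38 and below it in control. In MC38 the ranges of Il1r2 and Casp1 overlapped, as did those of Casp1 and Myd88, while in control the ranges of these genes did not overlap. The remaining genes were far lower. Il1rn was at 4.91 CPM per kilobase in MC38 and 1.11 in control, and Il1r1 ran from 2.07 to 3.26 in MC38 and averaged 1.52 in control. In MC38 the ranges of Il1rn and Il1r1 did not overlap, whereas in control they did. Nlrp3, Il1rap and Il1rl1 lay between 0.754 and 1.25 CPM per kilobase in MC38 and between 0.630 and 0.667 in control, with overlapping ranges between neighbours, and Il1a was last at 0.147 in MC38 and 0.106 in control.

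The receptor genes Il1r1, Il1r2 and Il1rl1 share their place in the genome, which their selection did not use, while Il1rap lies on chromosome 16. Il1r2, Il1r1, Il1rl2, Il1rl1, Il18r1 and Il18rap form a run of 6 family genes on the plus strand of chromosome 1, from 40074079 to 40551705, a stretch of 478 kb. Per kilobase of exon, the genes at its ends, Il1r2 and Il18rap, had the highest levels of the run, 44.7 and 6.18 CPM in MC38. Il18rap (chromosome 1: 40515362 to 40551705), the accessory chain of the IL-18 receptor, had 688, 524, 771 and 567 counts in MC38, against 224 and 194 in control. It rose to 41.7 ± 4.35 CPM in MC38, against 17.4 ± 1.98 CPM in control (SD, n = 4 and 2, edgeR log2 fold change 1.26 with SE 0.21, adjusted p = 0.0170). Its call was lost without control replicate 1 (0.113), control replicate 2 (0.113) or MC38 replicate 4 (0.0708). Il18r1, the ligand-binding chain that pairs with it, was at 3.99 CPM in MC38 and 4.05 CPM in control (edgeR adjusted p = 0.992), and Il1rl2, the IL-36 receptor, had 0, 4, 0 and 1 counts in MC38, against 0 and 22 in control. All its control counts lay in control replicate 2.

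Among the other ligands and binding proteins of the family, Il1f5, Il1f6, Il1f8 and Il1f10 had no count in either group. Il1f9, which encodes IL-36γ and lies on chromosome 2 near Il1rn, had 921, 1088, 1401 and 1089 counts in MC38, against 502 and 589 in control. Each MC38 library was above both controls in CPM, with 73.7 ± 8.25 in MC38 and 45.4 ± 4.55 in control, but the log2 fold change of 0.70 did not pass (SE 0.17, edgeR adjusted p = 0.0756). Il18, whose product is also cut by caspase-1, was at 16.5 CPM in MC38 and 19.2 CPM in control (edgeR adjusted p = 0.738). Its soluble inhibitor Il18bp was at 19.1 CPM in MC38 and 14.5 CPM in control (edgeR adjusted p = 0.526). The list held 8 genes, of which edgeR tested 3 and called 0, with 1 at an unadjusted p under 0.05 (Il1f9). DESeq2 called 1 and limma-voom 0.

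The list of other receptors had 4 tested genes of 6, of which Il18rap was the 1 called. Sigirr, an inhibitory receptor of the family, was at 52.0 ± 0.599 CPM in MC38 and 65.0 ± 11.4 CPM in control (edgeR adjusted p = 0.333). Il1rapl2 was at 4.85 ± 3.12 CPM in MC38 and 1.43 ± 2.02 CPM in control, with 34 counts in control replicate 1 and 0 in control replicate 2 (edgeR adjusted p = 0.504).

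Of the signalling genes below the receptor edgeR called 0 of 24 tested, and the median log2 fold change was 0.12. At an unadjusted p under 0.05, 3 were higher and 1 lower, DESeq2 called 2 higher, and limma-voom called 0. Those of smallest p were Mapk8, a JNK kinase, Map3k8, a kinase upstream of ERK, Ube2v1, a cofactor of ubiquitin chain assembly, and Irak4, the first kinase recruited by MyD88. Mapk8 was at 34.0 ± 12.4 CPM in MC38 and 13.8 ± 0.475 CPM in control (log2 fold change 1.30, edgeR adjusted p = 0.0964). It passed without MC38 replicate 1 (edgeR adjusted p = 0.0166). Irak4 was at 30.4 ± 2.84 CPM in MC38 and 22.0 ± 0.570 CPM in control (edgeR adjusted p = 0.277), Map3k8 at 97.8 ± 4.60 CPM in MC38 and 73.6 ± 0.450 CPM in control (0.150), and Ube2v1 at 144 ± 27.2 CPM in MC38 and 188 ± 5.65 CPM in control (0.270).

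Of the genes of inflammasomes and cytokine release, edgeR called 0 of 23 tested, and the median log2 fold change was 0.15. At an unadjusted p under 0.05, 5 were higher and 2 lower, DESeq2 called 3 higher, and limma-voom called 0. Casp8, a caspase that can also cut the IL-1β precursor, came nearest, at 81.6 to 152 CPM in MC38 and 47.5 to 58.4 CPM in control (edgeR log2 fold change 1.09 with SE 0.24, adjusted p = 0.0588). It passed without MC38 replicate 1 (edgeR adjusted p = 0.00867) and without MC38 replicate 3 (0.0276). Naip6, of the NAIP sensor family whose near-identical copies may share reads, was at 14.3 ± 3.87 CPM in MC38 and 5.03 ± 1.29 CPM in control (edgeR adjusted p = 0.0963). Txnip, a thioredoxin-binding protein that can bind NLRP3, was at 473 ± 8.81 CPM in MC38 and 363 ± 41.2 CPM in control (edgeR adjusted p = 0.123). Nlrp6, another sensor, had 9, 9, 21 and 14 counts in MC38 and none in either control. With 3 counts set for the control group and the MC38 counts taken as observed, it was 6.96-fold higher in MC38. This value allows for counting error of the controls only, and Nlrp6 did not pass (edgeR adjusted p = 0.160). The median of the list is the same with Nlrp6 at this value, which lies above it.

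Transcripts that IL-1 induces in other cells were called in both directions. Of 36 tested genes of this list 3 were higher and 1 lower in MC38, where 32 did not pass and the median log2 fold change was 0.20. Lcn2, an iron-sequestering protein of neutrophil granules, rose to 1412 ± 137 CPM in MC38, against 669 ± 21.1 CPM in control (SD, n = 4 and 2, edgeR adjusted p = 0.00232). Itgam, the integrin CD11b, rose to 71.9 ± 10.4 CPM in MC38, against 30.4 ± 4.68 CPM in control (edgeR adjusted p = 0.0155), and Csf3r, the G-CSF receptor, to 219 ± 12.9 CPM in MC38, against 140 ± 10.1 CPM in control (edgeR adjusted p = 0.0322). Lcn2 and Csf3r are also neutrophil markers. Ccl2, a monocyte chemokine, fell to 27.9 ± 2.48 CPM in MC38, against 56.1 ± 0.0640 CPM in control (edgeR log2 fold change -1.01 with SE 0.17, adjusted p = 0.0205). All 4 calls were lost without control replicate 1 (adjusted p from 0.0797 to 0.251) and without control replicate 2 (from 0.0501 to 0.109). Itgam, Ccl2 and Csf3r also lost theirs without MC38 replicate 4 (0.0527, 0.0740 and 0.0977), and Ccl2 and Csf3r without MC38 replicate 2 (0.0847 and 0.115).

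**Figure D4:**
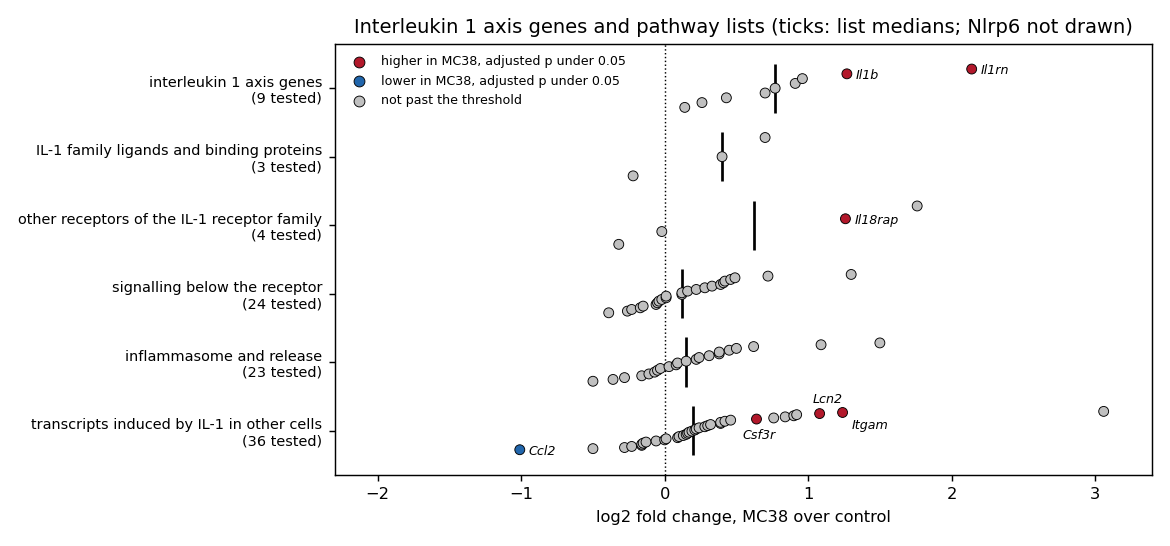
Log2 fold change of MC38 over control for each tested gene of the axis and of 5 lists around it, with a circle per gene and a black tick at the median of each list. Red and blue circles passed an adjusted p of 0.05, and the list medians run from 0.12 for signalling genes to 0.77 for the 9 genes of the axis. Nlrp6, with no control count, is not drawn.

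Markers of neutrophils, which are among the cells known to express Il1b, Il1rn and Il1r2, were also higher in MC38 as a sum. Of 21 neutrophil markers tested, Il1f9 among them, 15 were higher and 0 lower in MC38, and none was at 0. Their summed level ran from 55628 to 63297 CPM in the MC38 libraries and from 29001 to 29316 CPM in the controls, 2.04 times as high in MC38. Ly6g, a surface marker of mature neutrophils, was at 25.9 ± 3.05 CPM in MC38 and 11.6 ± 5.15 CPM in control (edgeR adjusted p = 0.0984). The summed level was highest in MC38 replicate 1 and lowest in replicate 3, as were Il1rn and Il1r2. Il1b ran the other way, lowest in MC38 replicate 1 (211 CPM) and highest in replicate 3 (281 CPM). Which cells the IL-1 transcripts came from was not measured.

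Set against 20 neutrophil markers of the same library (Il1f9 left out), transcripts of the axis were read on another scale. S100a8, S100a9 and Ngp carried most of the marker sum, at 20060, 17865 and 9125 CPM in MC38. The log2 fold change of single markers ran from 0.26 for Cxcr2 to 2.44 for Stfa1. Whether other markers would place the groups alike was not tested. Il1b was at 3.33, 3.56, 5.06 and 4.28 counts per 1000 marker counts in MC38, against 3.64 and 3.19 in control, and the groups overlapped (exact permutation p = 0.400). Il1r2 was at 1.62, 1.33, 1.16 and 1.60 per 1000 in MC38 and 1.52 and 1.49 in control, also overlapping (exact permutation p = 0.733). Il1rn was at 0.503, 0.475, 0.406 and 0.439 per 1000 in MC38, against 0.146 and 0.277 in control, with every MC38 library above both controls (2.15 times the control mean, exact permutation p = 0.0667, the smallest that 15 splits allow). Myd88 lay lower in every MC38 library on this scale, at 0.991 ± 0.141 per 1000 in MC38 and 1.82 ± 0.00964 in control (SD, n = 4 and 2, exact permutation p = 0.0667). A gene of unchanged CPM comes out lower here, since the marker sum was 2.04 times as high in MC38. Myd88 was at 58.7 CPM in MC38 and 53.1 CPM in control, so this is not a result about Myd88. The other 5 tested genes overlapped. Adjusted over the 9 genes, no permutation p was under 0.300, and the scaling was chosen after the values were seen. How many of all tested genes lay apart on this scale was not counted. In CPM, 29.0% of all tested genes did so in either direction, so the separation of Il1rn here cannot be called unusual.

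**Figure D5:**
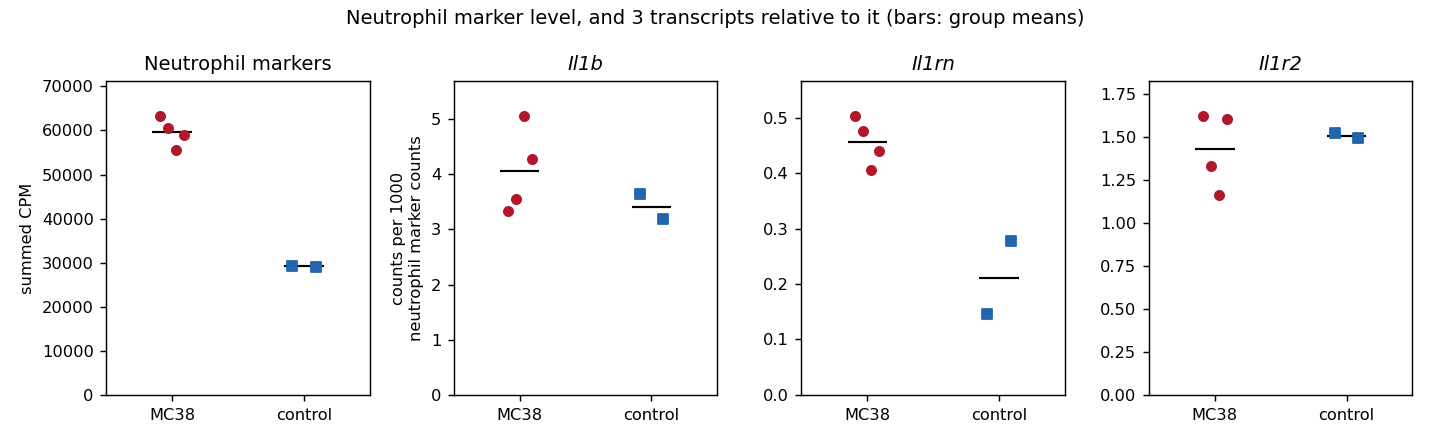
Left, summed CPM of 21 neutrophil markers in each library. The other panels give counts of Il1b, Il1rn and Il1r2 per 1000 counts of 20 neutrophil markers, with a circle per MC38 library, a square per control library, a bar at the group mean and axes from 0. Marker sums are 55628 to 63297 CPM in MC38, above both controls, and of these 3 transcripts only Il1rn keeps the groups apart on the marker scale.

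Markers of other cells are given by their sums, which abundant genes carry, and by the fitted change of each gene. Over the 21 neutrophil markers the median log2 fold change was 0.98, with all 21 estimates above 0. Monocyte and macrophage markers summed to 3248 to 3385 CPM in MC38 and 2317 to 2375 CPM in control, with 2 of 18 called higher, none lower and none at 0 (median log2 fold change 0.40). B and plasma cell markers summed to 5071 to 5962 CPM in MC38 and 2878 to 3379 CPM in control, with 2 of 11 called higher, and dendritic cell markers to 509 to 551 CPM in MC38 and 351 to 422 CPM in control, with 2 of 10 called higher. Mast cell, basophil and eosinophil markers, whose cells express Il1rl1, had a median log2 fold change of -0.91, with 7 of 10 tested below 0, 2 called lower, 1 called higher and 2 of the 14 at 0. The basophil protease Mcpt8 fell to 7.70 ± 1.29 CPM in MC38, against 31.9 ± 0.132 CPM in control (SD, n = 4 and 2, edgeR adjusted p = 0.00444), and the eosinophil granule gene Prg2 fell to 5.57 ± 1.89 CPM in MC38, against 23.0 ± 3.48 CPM in control (edgeR adjusted p = 0.0256). Hdc, which makes histamine, rose to 183 ± 13.3 CPM in MC38, against 76.3 ± 3.49 CPM in control (edgeR adjusted p = 0.00105). The sum of this list, 455 to 489 CPM in MC38 and 502 to 575 CPM in control, was mostly Hdc and Gata2 (228 CPM in MC38 and 321 CPM in control), a gene that HSCs also express. Sums of megakaryocyte and erythroid markers were 542 to 591 CPM in MC38 and 641 to 732 CPM in control, with 0 of 12 called by edgeR. T, NK and innate lymphoid markers had a median log2 fold change of 0.96, with 13 of 16 estimates above 0. edgeR called 0 of them, 8 were higher at an unadjusted p under 0.05, DESeq2 called 4 higher and limma-voom 0. Klrb1c, the NK cell antigen NK1.1, was at 20.6 ± 4.95 CPM in MC38 and 6.47 ± 2.26 CPM in control (edgeR adjusted p = 0.0541). The sum of this list overlapped, at 561 to 593 CPM in MC38 and 518 to 593 CPM in control, and was mostly Nkg7 (365 CPM in MC38 and 420 CPM in control, edgeR adjusted p = 0.420). Sums of stromal and endothelial markers also overlapped, at 216 to 261 CPM in MC38 and 232 to 245 CPM in control. The part of these cells in the results above was not tested. HSC markers were present in every library, with sums of 1828 to 2022 CPM in MC38 and 1929 to 2095 CPM in control and 0 of 16 called by edgeR (3 at an unadjusted p under 0.05, and 1 higher and 1 lower by DESeq2). Kit, the stem cell factor receptor, was at 328 ± 29.4 CPM in MC38 and 352 ± 42.8 CPM in control. The neutrophil sum exceeded the HSC sum in every library of both groups. The lists hold unlike genes, S100a8 alone being at 20060 CPM in MC38, so these sums do not compare amounts of cells.

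Genes whose pattern over the 6 libraries was nearest to that of Il1b and Il1rn were sought among 7148 protein-coding genes of at least 20 CPM on average. The measure was the root mean square difference of centred log2 CPM. For Il1b the nearest were Vmp1 (0.06), AA467197 (0.08), Wfdc17 (0.11) and Entpd1 (0.11), where the median over all these genes was 0.65. Vmp1 was at 442 CPM in MC38 and 196 CPM in control, and Wfdc17 at 245 CPM in MC38 and 97.3 CPM in control. For Il1rn they were less close, Asprv1 (0.30), Cd300ld (0.37), Ifitm6 (0.37) and Fpr1 (0.40), against a median of 1.10. Ifitm6 was at 316 CPM in MC38 and 71.8 CPM in control, and Fpr1, a formyl peptide receptor of neutrophils, at 54.1 CPM in MC38 and 19.2 CPM in control. The likeness is a description over 6 libraries that share their group difference.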

How the data were processed

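RNA of sorted bone marrow cells was sequenced after low-input amplification with 12 PCR cycles. The authors deposited read counts per Ensembl gene. The genome build was mm10 and the tools were HTSeq 0.10.0, STAR 2.6.1 and Trim Galore 0.5.0, per the submitters' processing notes. Not given in the sources used here were annotation release, strand setting and filters. The deposited control column 3 was treated as a score of unknown making, since 95% of its ratios to the sum of the other controls (genes where that sum was 200 or more) lay between 0.341 and 0.371. No molecular identifiers are named, so PCR copies count as reads. The fold given for Nlrp6 allows for counting error of the controls only. Totals were 13368238 to 17657037 counts in MC38 and 12131546 and 12306066 in control.

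GENCODE M21 (GRCm38) named 27797 of the 28786 gene IDs. The fit used edgeR 4.0.16 in R 4.3.3 on 4 MC38 and 2 control libraries, with filterByExpr, TMM, the robust quasi-likelihood test, no block and Benjamini-Hochberg adjustment over 14226 genes, threshold 0.05. SEs were taken from the log2 fold change and its F statistic. The filter took in genes with enough counts in either group, and the 9 genes that passed had at least 29 counts in every library. Ratios used an exact permutation test over 15 splits, two-sided. The steps were tested on simulated data. DESeq2 1.42.0, limma 3.58.1 (voom), other scaling, no filter, all 7 columns, a replicate block, removal of immunoglobulin genes and each library left out were alternatives. All 10 genes of the axis, the 4 genes of smallest p in each pathway list (all where fewer were tested) and 4 nearest patterns are named, with a few others chosen after their values were seen (Il1rl2 and the cell markers). Genes and lists were chosen with earlier results of these data known.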

Additional observations from a re-analysis of the deposited data

Results flagged for a closer look

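Of 39 values looked at over the 4 MC38 libraries, 1 had a library far from the others, where chance alone flags about 1 in 20. Map3k8, a kinase upstream of ERK, was at 90.9 CPM in MC38 replicate 1 while the other MC38 libraries lay close together, the highest at 100.3 CPM.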

How the results depend on the processing

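Over the alternatives, 104 of 117 fits of single genes of the axis kept direction and side of the threshold, 4 lost a call, 6 gained one and 3 changed sign. For the named pathway genes these were 204, 16, 20 and 4 of 244. The whole comparison called 148 genes higher and 81 lower in MC38. It called 302 and 202 without the low-count filter, 626 and 396 with DESeq2, 791 and 663 with all 7 columns, 269 and 190 with the replicate block, and 95 and 36 without immunoglobulin genes. Leaving out 1 library gave 44 to 259 genes higher and 16 to 183 lower. Of the axis, 0 to 3 genes were then called higher: 0 without control replicate 1, 1 (Il1rn) without control replicate 2 and 1 (Il1b) without MC38 replicate 2. Where 3 were called, Il1r2 was the third. The difference in the Il1rn to Il1b ratio ran from 0.38 to 1.48, and that in the Il1r2 to Il1r1 ratio from -0.18 to 0.48. Leaving out a library gave 0.01 as the highest log2 fold change of Il18 (lowest -0.41), -0.34 to 0.38 for Il18r1 and -0.13 to 0.81 for Il1rl1. Whether the replicate numbers 1 and 2 pair the samples is not stated. Same-numbered libraries deviated together by correlations of only 0.06 and -0.02. With 2 controls, whose deviations mirror each other, these values cannot exclude a pairing. With the replicate block the log2 fold change was -0.53 for Il1rap, -0.06 for Il1rl1 and 0.23 for Il18r1, and none of these passed. MC38 replicates 3 and 4 have no control of the same number in that fit. Its fold changes thus compare MC38 replicates 1 and 2 with the controls. The cause of the other shifts was not tested. Single controls left after removal are assumed to vary like the MC38 libraries. Depth limits Il1a, Il1rl2 and Nlrp6.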
